A study of Mus musculus with 23 samples.

Results

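The jejunum of Cpa3+/+ mice, which have mast cells, was compared between mice challenged with egg white and mice that were not, across all genes. The 7 challenged libraries were those of challenge day 1 (3 libraries), day 3 (2) and day 5 (2), and the 5 unchallenged libraries were naive (3) and immunized (2). They were chosen by genotype and state from the labels and made up 12 of the 23 libraries of the study. The other 11 came from Cpa3Cre/+ mice, in which a Cre insertion at the mast cell gene Cpa3 removes mast cells, and were used for 1 comparison of genotypes.

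Immunized and challenged mice had received 25 µg ovalbumin with 2 mg alum into the peritoneal cavity on days 0 and 14. Naive mice were untreated. Challenged mice were offered a choice of plain water or water containing 20% egg white and 8% sugar from day 20 for 1, 3 or 5 days. The sources used here do not give the amount each mouse drank, the strain, the age or the hour of sampling. The unchallenged group thus joins mice with and without immunization, and egg white and sugar were offered together. All 12 libraries came from females except naive replicate 3. The labels did not say that libraries came from separate animals, so p-values measure the spread between libraries, which may be technical. In the comparison of all challenged with all unchallenged libraries, differences between days, and between naive and immunized, also count as spread. Each sample was whole jejunum without fat and Peyer's patches. In such bulk tissue, fewer cells of a type and less RNA per cell cannot be told apart.

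Mucosal mast cells lie in the epithelium and lamina propria of the gut. Their surface holds the high-affinity IgE receptor, and binding of antigen to the IgE it carries releases granules with proteases, histamine and serotonin and starts the synthesis of leukotrienes and prostaglandins. The granules of mouse mucosal mast cells are known for the chymases Mcpt1 and Mcpt2. Egg white contains ovalbumin, the antigen of the immunization.

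Total counts ran from 5.48 to 14.54 M (mega) per library. Mitochondrially encoded genes took 4.87% to 8.11% of the reads. In a principal component analysis, day 1 replicate 2 stood alone on the first component (75.5, against -34.9 to 7.96 for the other libraries), and day 5 replicate 1 lay at the far end of the second (46.8). Both were kept, and values without them are given where they matter. Summed CPM (counts per M of reads, scaled with TMM factors) of 22 absorptive enterocyte genes were 36852 to 111800 in challenged and 50940 to 115090 in unchallenged libraries, and the lowest were the day 5 libraries.

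Promoter sequences of 4 mast cell genes are shown because GATA factors are known regulators of mast cell genes. These 4 genes, and 3 further ones read below, had positive log2 fold changes with challenge. Whether they moved together was not tested. Each is the 200 bases before the RefSeq transcript start (GRCm38.p6), 5′ to 3′ on the gene's strand. Capitals mark GATAA, the core of the GATA motif, or its reverse complement TTATC. The Cpa3 window lies at chr3:20242182-20242381 (minus strand), the Mcpt1 window at chr14:56017764-56017963 (plus), the Mcpt4 window at chr14:56062311-56062510 (minus) and the Fcer1a window at chr1:173227230-173227429 (minus).
Cpa3: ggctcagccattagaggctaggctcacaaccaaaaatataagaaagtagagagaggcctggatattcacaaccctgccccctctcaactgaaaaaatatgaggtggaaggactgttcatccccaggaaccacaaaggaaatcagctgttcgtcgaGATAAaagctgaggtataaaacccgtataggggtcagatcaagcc
Mcpt1: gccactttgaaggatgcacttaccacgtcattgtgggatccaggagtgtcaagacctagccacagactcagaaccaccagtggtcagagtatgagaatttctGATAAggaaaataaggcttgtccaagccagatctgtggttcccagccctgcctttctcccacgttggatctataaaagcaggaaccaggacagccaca
Mcpt4: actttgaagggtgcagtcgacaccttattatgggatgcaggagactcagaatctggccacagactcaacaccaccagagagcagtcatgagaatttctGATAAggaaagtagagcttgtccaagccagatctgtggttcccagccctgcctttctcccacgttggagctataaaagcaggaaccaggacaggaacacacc
Fcer1a: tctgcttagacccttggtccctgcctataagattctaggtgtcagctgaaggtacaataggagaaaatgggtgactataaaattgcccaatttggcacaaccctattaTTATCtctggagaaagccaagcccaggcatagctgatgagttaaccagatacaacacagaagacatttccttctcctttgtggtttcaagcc
The letters occurred 1 time in each of these windows, 45, 98, 102 and 92 bases before the start. Of 3 further mast cell genes read the same way, Cma1 held them 1 time, 194 bases before the start, Ms4a2 held them 2 times and Mcpt9 0 times. The Mcpt1 and Mcpt4 windows were identical at 171 of 206 aligned positions (83.0%), including the motif, while the Mcpt1 window was 48.7% identical to that of Mcpt9, 51.7% to that of Cma1 and 49.6% to that of Cpa3. By comparison, 5933 of 32817 promoter windows of the same length (18.1%) held GATAA or TTATC, so a match describes these letters and shows no bound site.

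No gene passed the test when all challenged libraries were set against all unchallenged ones. Of 16437 genes tested, 0 were called higher (0% of genes) and 0 lower (0%) with edgeR's quasi-likelihood test at an adjusted p under 0.05, and the smallest adjusted p was 0.838. At an unadjusted p under 0.05 there were 900 genes (5.48%), of which 395 were higher (2.4%) and 505 lower (3.07%) in challenged mice. DESeq2 called 4 genes. Those were Cpa3, the sialyltransferase gene St3gal4 and the predicted gene Gm15675 on the higher side, and the immunoglobulin segment Igkv4-90 on the lower side. Across genes the median log2 fold change was 0.01. The biological coefficient of variation within the challenged and unchallenged groups was 29.9%, which includes differences between days and between naive and immunized libraries. All fold changes of this comparison below are therefore values that did not pass the adjusted threshold in edgeR.

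Genes of mast cell granules had the highest values relative to unchallenged mice among 45 gene lists of cell types and pathways. Of 10 protease genes 9 were tested, and all 9 were on the positive side, at a median log2 fold change of 2.12 against 0.01 over all genes. Of these 9, 6 had an unadjusted p under 0.05 in the higher direction, where 2.4% of all genes did. In 0 of the 9 were the challenged and unchallenged libraries fully apart. The summed level of the list was 51.0 to 595 CPM in challenged and 22.9 to 96.0 CPM in unchallenged libraries.

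Mcpt1 (chr14:56017971-56020384, GRCm38), a chymase of mucosal mast cells, had 34.0, 28.5 and 112 CPM on day 1, 315 and 322 CPM on day 3 and 59.3 and 394 CPM on day 5, against 8.02, 13.1 and 28.4 CPM in naive and 27.2 and 54.4 CPM in immunized mice. All 4 libraries of days 3 and 5 lay above every unchallenged library, while 2 of the 3 day 1 libraries lay within the unchallenged range. The mean was 181 ± 157 CPM in challenged and 26.2 ± 18.1 CPM in unchallenged mice (SD, n = 7 and 5), with a log2 fold change of 2.78 ± 0.78 (SE; adjusted p = 0.838, edgeR).

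Mcpt2 (chr14:56042041-56044642), the neighbouring chymase gene, had 10.3, 7.35 and 37.0 CPM on day 1, 124 and 112 CPM on day 3 and 23.9 and 136 CPM on day 5, against 3.93, 6.22 and 11 CPM in naive and 10.8 and 20.3 CPM in immunized mice. Again the libraries of days 3 and 5 exceeded all unchallenged ones and those of day 1 overlapped them. Its log2 fold change was 2.60 ± 0.79. Mcpt4, a chymase typical of connective tissue mast cells, averaged 5.67 ± 5.16 CPM in challenged and 0.869 ± 0.730 CPM in unchallenged mice, with a log2 fold change of 2.61 ± 0.82. These genes are close relatives on chromosome 14 and may share reads.

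Cpa3 (chr3:20215620-20242181), the mast cell carboxypeptidase, had 1.79, 5.83 and 6.52 CPM on day 1, 17.0 and 12.9 CPM on day 3 and 4.01 and 21.9 CPM on day 5, against 0.818, 0.987 and 1.86 CPM in naive and 2.48 and 4.11 CPM in immunized mice. Day 5 replicate 1 and day 1 replicate 1 were the challenged libraries within the unchallenged range. The log2 fold change was 2.24 ± 0.59 in edgeR (adjusted p = 0.838) and 2.27 in DESeq2 (adjusted p = 0.0481), and the adjusted p ran from 0.0481 to 0.999 over 24 alternative settings.

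The other proteases had smaller or more uneven values. Mcpt9 had a log2 fold change of 2.12 ± 0.90, and its day 1 value was -0.50 ± 0.79 (0.11 without immunized replicate 2). Cma1, another chymase, had 2.02 ± 0.68, and the tryptase Tpsb2 had 1.09 ± 0.77 with day 3 replicate 1 at 5.01 CPM and all other challenged libraries at 2.20 CPM or below. Without that library the value of Tpsb2 was 0.50, and without immunized replicate 2 it was 1.80.

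Of 18 other mast cell genes 15 were tested, 12 had positive log2 fold changes and the median was 0.42. Fcer1a, the IgE-binding chain of the high-affinity receptor, had 0.822, 0.764 and 3.38 CPM on day 1, 5.56 and 4.86 CPM on day 3 and 1.68 and 6.56 CPM on day 5, against 0.327, 0.592 and 0.567 CPM in naive and 0.778 and 1.81 CPM in immunized mice. The day 3 libraries and the second day 5 library were the highest of the 12. Its log2 fold change was 2.00 ± 0.58, and that of Ms4a2, the receptor's beta chain, was 1.95 ± 0.77. Mcpt8 and Prss34, proteases of basophils, which carry the same receptor, did not pass the filter on low counts.

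Tph1, which makes the limiting enzyme of serotonin synthesis in mast cells and enterochromaffin cells, averaged 8.44 ± 3.02 CPM in challenged and 3.47 ± 1.53 CPM in unchallenged mice, with a log2 fold change of 1.25 ± 0.33. Cyp11a1, the enzyme of the opening step of steroid synthesis, averaged 1.15 ± 0.931 CPM in challenged and 0.204 ± 0.146 CPM in unchallenged mice, with a log2 fold change of 2.47 ± 0.70. Slc18a2, the vesicular monoamine transporter of granules, had a log2 fold change of 1.00 ± 0.39. Kit, the receptor of stem cell factor, which interstitial cells of Cajal also carry, averaged 22.0 ± 6.07 CPM in challenged and 22.9 ± 7.36 CPM in unchallenged mice. Its log2 fold change was -0.05 ± 0.22 and turned positive, up to 0.12, in 3 of the fits that left out a library.

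**Figure D1:**
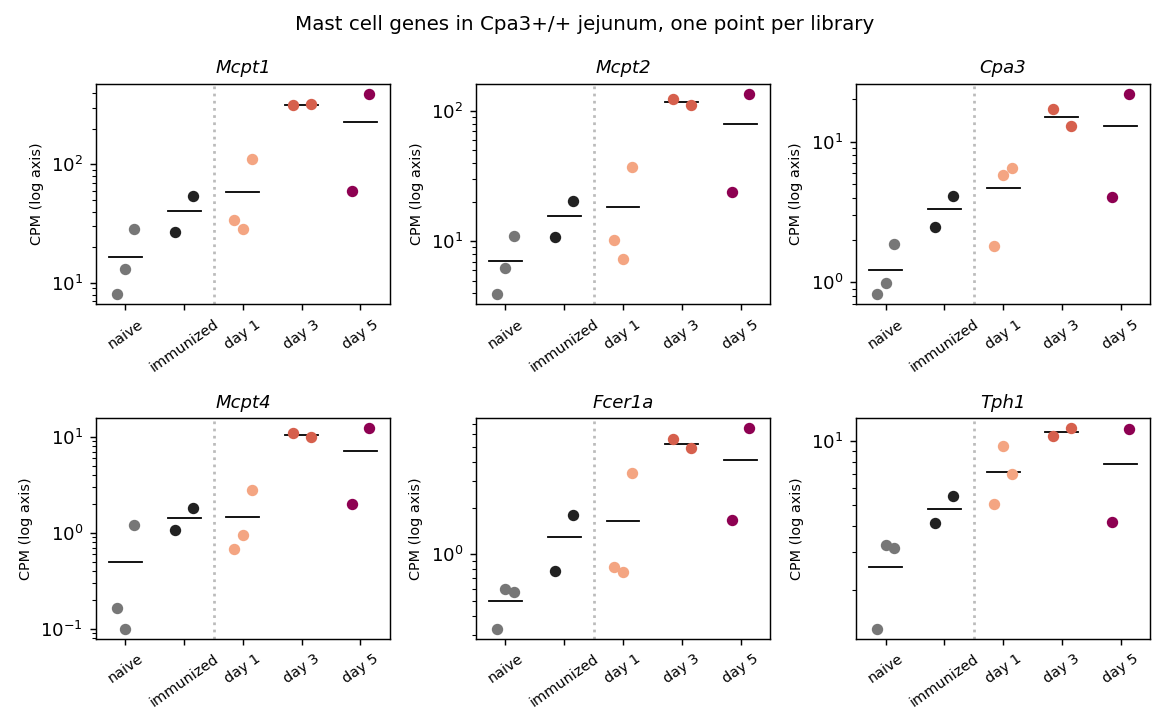
Levels of 6 mast cell genes in CPM (log axis) by state, with a point for each library and a bar at the mean of each state; the dotted line parts the unchallenged states (left) from the challenge days. Both day 3 libraries lie high for every gene shown, and the day 5 libraries are split, with Mcpt1 at 59.3 and 394 CPM.

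Immunized libraries lay between naive and challenged ones in mean for Mcpt1, Cpa3 and Fcer1a. Set against naive libraries alone, the log2 fold change of Mcpt1 was 3.44, and against immunized libraries alone it was 2.15. The corresponding values were 2.97 and 1.61 for Cpa3, and 2.70 and 1.40 for Fcer1a. Without day 1 replicate 2 and day 5 replicate 1, the libraries that stood apart, Mcpt1 had 3.15 and Cpa3 2.49.

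The challenge response of mast cell genes was set against that of Cpa3Cre/+ mice in a model of 23 libraries with sex as a covariate. Of 17236 genes 0 were called in either direction (0%) with edgeR, and DESeq2 also called 0. At an unadjusted p under 0.05 there were 122 genes (0.708%). Levels are given next on a CPM scale without TMM factors, and a difference in level between genotypes was not tested. For Cpa3, which holds the Cre insertion, the changed allele and the mast cells cannot be told apart. Cpa3 averaged 10.4 ± 8.46 CPM in challenged and 2.05 ± 1.36 CPM in unchallenged Cpa3+/+ mice (n = 7 and 5), and 0.947 ± 0.449 CPM in challenged and 0.489 ± 0.650 CPM in unchallenged Cpa3Cre/+ mice (n = 7 and 4). Mcpt1 averaged 189 ± 172 and 26.0 ± 18.2 CPM in challenged and unchallenged Cpa3+/+ mice. In challenged and unchallenged Cpa3Cre/+ mice it averaged 39.4 ± 17.2 and 7.05 ± 4.54 CPM. Which cells of Cpa3Cre/+ mice this RNA came from was not tested.

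The log2 fold change of Mcpt1 with challenge was 2.76 in Cpa3+/+ and 2.59 in Cpa3Cre/+ mice. The difference of 0.17 had an interval of 2 SE from -1.58 to 1.92, so these libraries did not settle its sign or size within that range. With a library left out, the difference ran from -0.21 to 0.56. For Cpa3 the fold changes were 2.08 and 1.11, with a difference of 0.97 (-0.89 to 2.83; 0.13 without Cpa3Cre/+ naive replicate 1), and for Tph1 1.31 and 0.39, with a difference of 0.92 (-0.03 to 1.87). The genes with the smallest p for a difference were Rasd1 (3.10 ± 1.05), Mmp16 (-1.49 ± 0.53), Coil (0.89 ± 0.33), Slc18a2 (1.90 ± 0.72) and Asic1 (-1.22 ± 0.48), each with an adjusted p of 1 in edgeR.

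Outside the mast cell lists, the genes with the smallest p on the higher side had functions in several compartments. St3gal4 had 10.02, 18.5 and 32.6 CPM on day 1, 17.2 and 29.7 CPM on day 3 and 5.77 and 21.1 CPM on day 5, against 5.24, 6.61 and 9.80 CPM in naive and 4.74 and 4.19 CPM in immunized mice. Day 5 replicate 1 was the challenged library within the unchallenged range. Its log2 fold change was 1.65 ± 0.38 (edgeR; DESeq2 adjusted p = 0.0481, range over the settings 0.0481 to 0.999), and in Cpa3Cre/+ mice the same contrast gave 1.79.

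Krt18, a keratin of simple epithelia, averaged 186 ± 35.1 CPM in challenged and 133 ± 17 CPM in unchallenged mice, with a log2 fold change of 0.48 ± 0.15. The calcium-binding protein gene S100a6 had a log2 fold change of 0.54 ± 0.16, and Socs2, a suppressor of cytokine signalling, 0.55 ± 0.17. Tmem252 had 0.97 ± 0.26 and Ly6g5b 1.49 ± 0.47. Day 1 replicate 2 was the highest of the challenged libraries for Krt18, Socs2, Tmem252 and Ly6g5b.

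On the lower side, 6 of the 11 genes described had challenged and unchallenged libraries fully apart, where 0.183% of all genes did. The 11 genes were chosen by small p in the same comparison, so such separation follows in part from the choice. Mmp16, a membrane-bound matrix metalloproteinase, had 0.299, 0.287 and 0.230 CPM on day 1, 0.343 and 0.286 CPM on day 3 and 0.561 and 0.597 CPM on day 5, against 1.15, 1.28 and 0.729 CPM in naive and 1.91 and 0.822 CPM in immunized mice. Every challenged library lay below every unchallenged one, at levels of few reads. The log2 fold change was -1.64 ± 0.36. Srcap, a chromatin remodeller that deposits a histone variant, had a log2 fold change of -1.30 ± 0.33, with 0.464 to 2.61 CPM in challenged and 3.32 to 4.54 CPM in unchallenged libraries. The zinc finger genes Zfp526 and Tshz1 had -0.83 ± 0.20 and -0.47 ± 0.13, and Ppp1r3e, a glycogen-targeting subunit of protein phosphatase 1, had -1.02 ± 0.29.

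Lower values that overlapped between groups were seen for Hdac4 (a histone deacetylase, -0.48 ± 0.13), Dst (a cytoskeletal linker, -0.70 ± 0.19), Acvr2b (an activin receptor, -0.91 ± 0.26) and Slc5a12 (a transporter of lactate and related acids, -0.98 ± 0.28). Slc5a12 ran from 79.2 to 301 CPM in challenged and from 199 to 454 CPM in unchallenged libraries. Over all genes, the groups were fully apart for 16 genes with challenged libraries higher (0.0973%) and 30 with challenged libraries lower (0.183%). Among 604 tested genes of the 45 lists, 0 were. Examples chosen after their values were seen were Ndufb5, a subunit of respiratory complex I, at 124 to 186 CPM in challenged and 108 to 124 CPM in unchallenged libraries, and the receptor gene Lrp4, at 21.8 to 49.4 CPM in challenged and 50.4 to 52.6 CPM in unchallenged libraries.

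**Figure D2:**
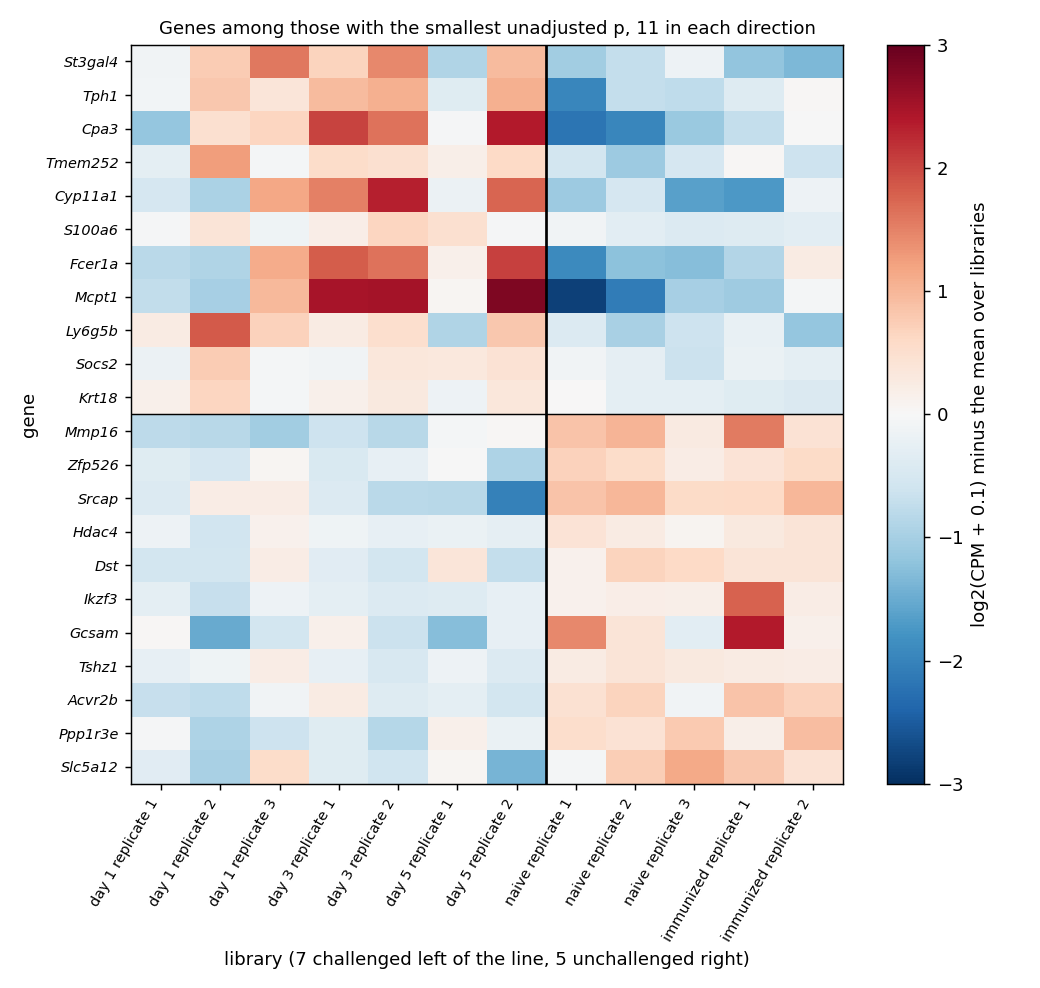
Levels of 22 of the genes with the smallest unadjusted p, 11 in each direction, as log2(CPM + 0.1) minus the mean of the gene over the 12 libraries (colour); challenged libraries stand left of the vertical line and unchallenged ones right of it. Mcpt1 is highest in the day 3 libraries and day 5 replicate 2, and Ikzf3 and Gcsam are highest in immunized replicate 1.

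Genes of B cells and follicles had the lowest median of all lists, and 1 unchallenged library stood high for them. Of 17 genes 15 were tested, 1 had a positive log2 fold change and the median was -1.54. Without immunized replicate 1 the median was -0.07, with 6 of 15 positive. The complement receptor gene Cr2 had 20.3 CPM in immunized replicate 1 and 3.27 CPM in naive replicate 1, against at most 0.405 CPM in the other unchallenged libraries, and 0.137 to 3.45 CPM in challenged ones. Pax5, the B cell identity factor, had 14.3 CPM in immunized replicate 1, and its log2 fold change was -2.48 ± 1.09. Cxcr5, the follicle-homing receptor, had -2.20 ± 0.90, and Ccr6 had -1.54 ± 0.62. Without immunized replicate 1 the values were -0.13 for Cr2, -0.28 for Pax5, -0.71 for Cxcr5 and -0.51 for Ccr6. The list summed to 33.5 to 84.5 CPM in challenged (median 44.4) and 30.9 to 228 CPM in unchallenged libraries (median 42.7). Ikzf3, a lymphocyte transcription factor, and Gcsam, a germinal centre gene, had log2 fold changes of -1.03 ± 0.29 and -1.76 ± 0.49. Their highest library was also immunized replicate 1, with 16.1 and 4.17 CPM, and without it their values were -0.52 and -1.06. The part of lymphoid tissue left in a sample in these values was not tested.

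Genes of the cholesterol synthesis pathway, which the factor SREBP2 switches on when cells are short of sterol, lay lower together by small amounts. Of 21 genes tested, 19 had negative log2 fold changes, and the median was -0.25. Srebf2, which encodes SREBP2, had 97.6, 93.3 and 84.6 CPM on day 1, 92.6 and 88.6 CPM on day 3 and 67.5 and 73.5 CPM on day 5, against 138, 128 and 92.9 CPM in naive and 96.4 and 107 CPM in immunized mice. All libraries of days 3 and 5 lay below all unchallenged ones, and 2 of the 3 day 1 libraries lay within the unchallenged range. Its log2 fold change was -0.40 ± 0.14. The synthesis enzyme gene Lss had -0.42 ± 0.18 and Insig1, a sterol-sensing inhibitor, -0.59 ± 0.26 (-0.32 without naive replicate 3). These were among 4 members with an unadjusted p under 0.05 (3.07% of all genes lay there on the lower side). Naive libraries were the higher part of the unchallenged group. Insig1 averaged 88.2 CPM in naive, 52.3 CPM in immunized and 48.9 CPM in challenged mice, and Lss 30.7, 22.1 and 20.3 CPM. The list summed to 1410 to 1529 CPM in naive, 1204 and 1300 CPM in immunized and 941 to 1463 CPM in challenged libraries.

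Genes that the type 2 cytokines induce in the epithelium had a median of 0.80, with 11 of 12 positive. Gsdmc2 and Gsdmc4, near-identical gasdermins that may share reads, had log2 fold changes of 2.38 ± 1.00 and 2.72 ± 1.16. Gsdmc2 had 3.89, 1.72 and 128 CPM on day 1, 11.6 and 52.9 CPM on day 3 and 15.5 and 52.6 CPM on day 5, against 6.55, 2.17 and 18.5 CPM in naive and 3.32 and 5.67 CPM in immunized mice. The groups overlapped, with day 1 replicate 3 far above the rest. Ang4, an antimicrobial ribonuclease of goblet and Paneth cells, had 1.12 ± 0.55, and B4galnt2, a glycosyltransferase, had -0.65 ± 0.29. Type 2 cytokine and eosinophil genes had a median of 0.11, with 7 of 12 positive and 0 at an unadjusted p under 0.05.

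Tuft cell genes had a median of 0.18, with 11 of 15 positive. Their smallest p belonged to Alox5 (0.80 ± 0.34), the enzyme that opens leukotriene synthesis and is also made by mast cells, and Sh2d6 (0.94 ± 0.41). Goblet cell genes had a median of 0.10 and T cell genes -0.11, with 0 members at an unadjusted p under 0.05. Heat shock chaperones had a median of 0.25, with 13 of 15 positive, and Dnajb1 averaged 46.9 ± 6.73 CPM in challenged and 35.3 ± 2.92 CPM in unchallenged mice (log2 fold change 0.41 ± 0.13). Its partner Hspa8 had 0.46 ± 0.21 (0.70 without naive replicate 3). Among complement genes the inhibitor Cd55 had 0.73 ± 0.25.

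Reg3g, an antimicrobial lectin of the epithelium, had a log2 fold change of -1.42 ± 0.48 (-0.91 without immunized replicate 2). It stood at 144 to 318 CPM in challenged, 124 to 439 CPM in naive, and 924 and 1260 CPM in immunized libraries, so the 2 immunized libraries lay above all others. With immunized libraries alone as the unchallenged group it was the single gene called (log2 fold change -2.34, adjusted p = 0.0143, edgeR).

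**Figure D3:**
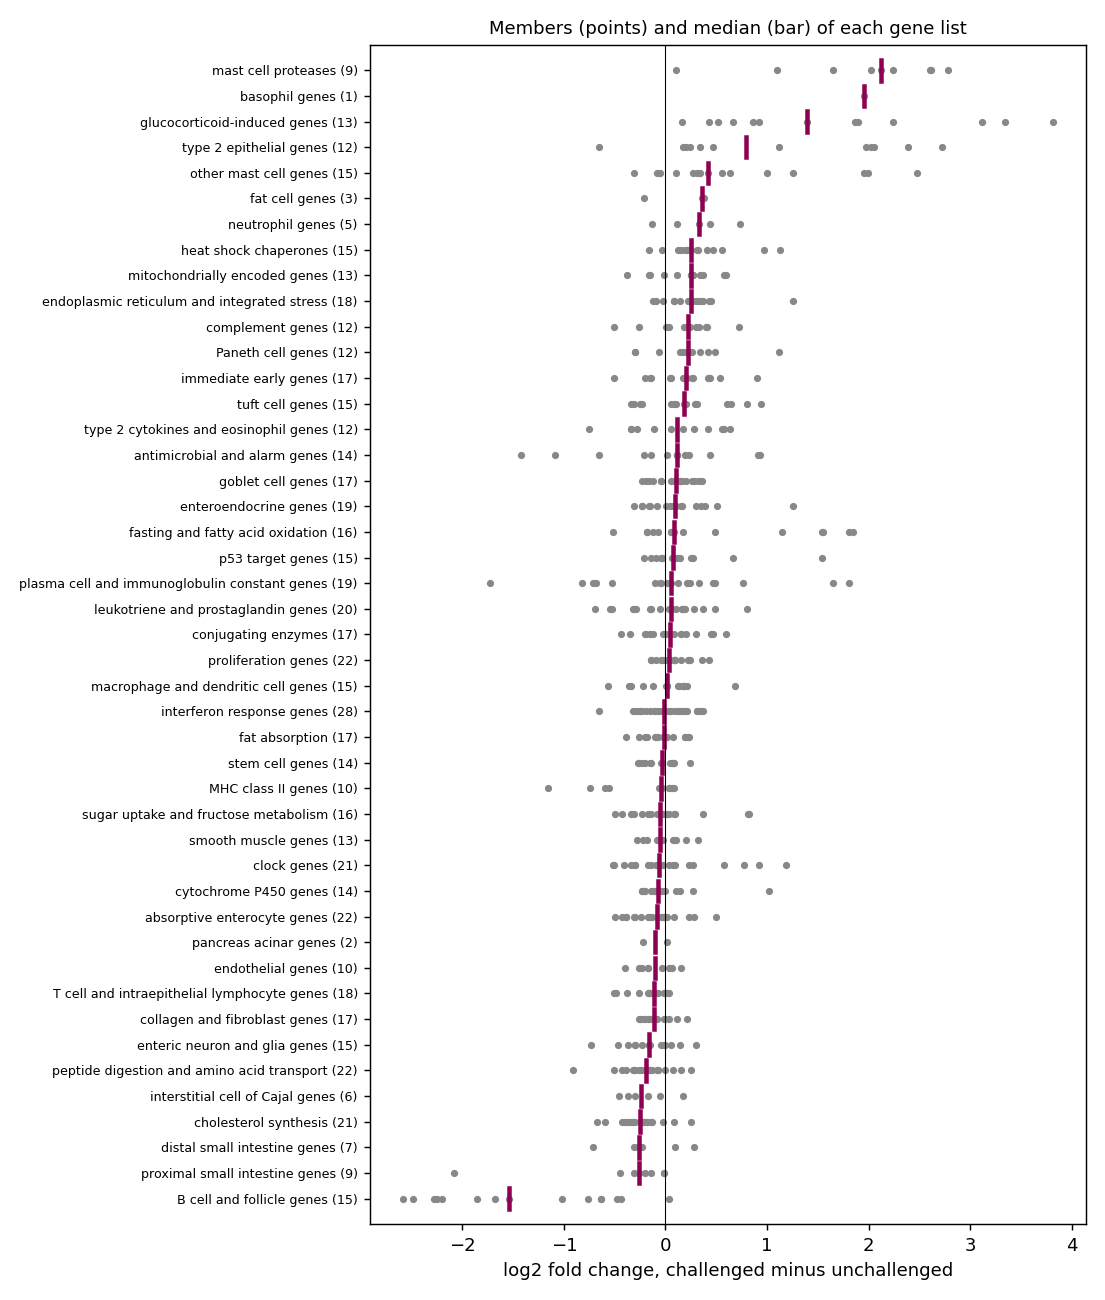
Log2 fold change of each tested member (points) and median (bar) of the 45 gene lists, challenged minus unchallenged, with the number of tested members in brackets. Mast cell proteases have the highest median, 2.12, and B cell and follicle genes the lowest, -1.54.

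Glucocorticoid-induced genes had a median of 1.39 with 13 of 13 positive, and day 1 replicate 2 stood far above the rest for those named here. Without that library the median was 0.17, with 9 of 13 positive. By day it was 2.44 on day 1, 0.25 on day 3 and -0.30 on day 5. Fkbp5, a cochaperone of the glucocorticoid receptor, had 974 CPM in that library, 16.3 to 62.3 CPM in the other challenged libraries and 12.9 to 18.7 CPM in unchallenged ones. Zbtb16, another target of the receptor, had 159 CPM there, and the metallothionein genes Mt2 and Mt1 had 955 and 1400 CPM. The fasting gene Angptl4, an inhibitor of lipoprotein lipase, was at 144 CPM in that library. Without it the log2 fold change was 0.92 for Angptl4, 0.87 for Fkbp5, 0.77 for Zbtb16, 0.48 for Mt2 and 0.32 for Mt1. With it, Angptl4 and Acot1, a thioesterase of fatty acyl-CoA, had log2 fold changes of 1.55 ± 0.51 and 1.15 ± 0.48, and Ppargc1a, a coactivator of mitochondrial genes, -0.52 ± 0.16. Day 1 replicate 2 was 1 of 3 libraries of its day.

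Single days were next set against the 5 unchallenged libraries in a model of the 12 libraries, so the 3 contrasts share their controls. Days 1 and 3 had 0 genes called (0%) with edgeR, with smallest adjusted p values of 0.407 and 0.304. An unadjusted p under 0.05 was found for 1957 genes (11.9%) on day 1 and 2201 (13.4%) on day 3. DESeq2 called 6 higher and 1 lower on day 1, and 14 higher and 17 lower on day 3. For Mcpt1 the log2 fold changes were 1.13 ± 0.71 on day 1, 3.59 ± 0.77 on day 3 and 3.10 ± 0.77 on day 5, and for Cpa3 1.14 ± 0.60, 2.81 ± 0.63 and 2.61 ± 0.63. The adjusted p of a difference among days was 0.205 for Mcpt1 and 0.237 for Cpa3 (edgeR).

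On day 5, 93 genes were called higher (0.566%) and 494 lower (3.01%) with edgeR. Without day 5 replicate 1, 0 genes were called in edgeR and 2039 had an unadjusted p under 0.05, and without day 5 replicate 2 the count was 121. Either leaves 1 library on day 5, which is then assumed to vary like the libraries of the other groups. How far the smaller number of libraries accounts for the fewer calls was not tested. Without day 5 replicate 1 the log2 fold change was -2.72 for Ap5b1, -3.35 for Rab43 and 1.38 for Reg4, against -2.61, -3.46 and 1.56 with all libraries. The count was 327 without naive replicate 2, 345 and 236 without immunized replicates 1 and 2, 1412 without day 1 replicate 2, and 361 and 310 without day 3 replicates 1 and 2. It also moved with base composition. Genes called lower had a median GC content of 58.2% and genes called higher 45.0%, against 49.6% over all genes tested. With a correction for GC content, which was added after the data were seen, 46 genes were called (10 higher and 36 lower), of which 39 were among the 587.

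In the 10% of genes richest in GC, the median log2 fold change was -0.54 on day 5 and 0.35 on day 3. In the 10% poorest in GC it was 0.17 on day 5 and -0.28 on day 3. For the 3 days together these medians were 0.01 and -0.03.

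**Figure D4:**
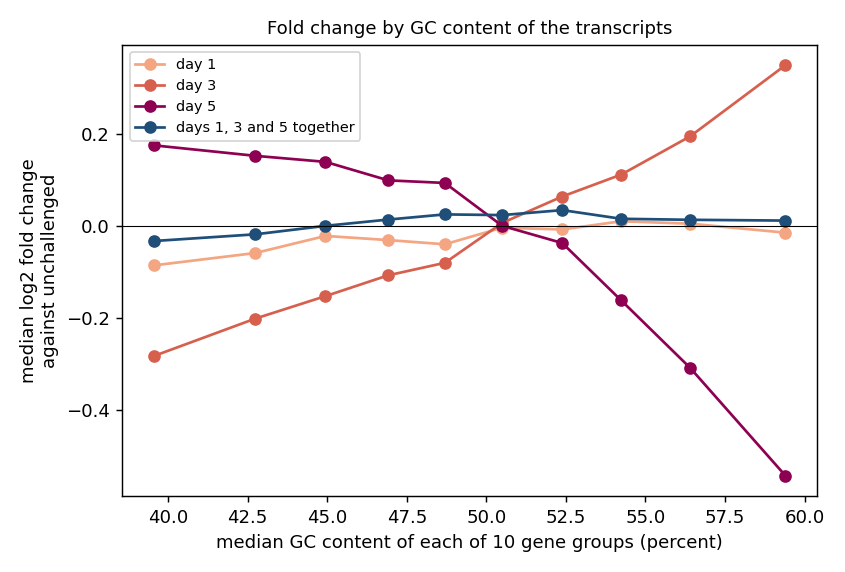
Median log2 fold change against unchallenged libraries (vertical axis) in 10 equal groups of the genes ordered by GC content of their exons (horizontal axis, percent), for each day and for the days together. In the GC-richest group the median is -0.54 on day 5 and 0.35 on day 3, and the pooled line stays near 0.

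Of 9 mast cell proteases 1 was called higher on day 5, and of 15 other mast cell genes 1 was called higher and 1 lower, where 0.566% of all genes were higher and 3.01% lower. Cpa3 passed with an adjusted p of 0.0431 (edgeR), and Slc18a2 rose to 2.80 and 6.36 CPM on day 5, against 1.05 to 1.81 CPM in unchallenged mice (log2 fold change 1.62 ± 0.35, adjusted p = 0.0225, edgeR). The 2 libraries of the day differed. The log2 fold change of Cpa3 was 3.34 without day 5 replicate 1 and 0.90 without replicate 2, and that of Slc18a2 2.07 and 0.90. Ltc4s, which makes leukotriene C4, fell to 0.721 and 1.99 CPM, against 4.52 to 7.37 CPM in unchallenged mice (-2.01 ± 0.41, adjusted p = 0.0193, edgeR), and was at 10.5 and 10.6 CPM on day 3. Its GC content is 61.0%.

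Single epithelial and cell cycle genes also rose on day 5. Reg4, a lectin of secretory epithelial cells, had 367 and 297 CPM on day 5, against 50.2 to 160 CPM in unchallenged mice, so the groups were apart (1.56 ± 0.32, adjusted p = 0.0206, edgeR). Pnliprp2, a lipase, had 190 and 381 CPM on day 5, against 40.2 to 134 CPM in unchallenged mice (1.67 ± 0.39). Mboat1, an acyltransferase of phospholipids, had 10 and 3.65 CPM, against 0.567 to 2.88 CPM in unchallenged mice (1.89 ± 0.48). Without day 5 replicate 1 the value was 2.07 for Pnliprp2 and 0.97 for Mboat1, and without replicate 2 it was 1.07 and 2.44. Cyclin A2 (Ccna2) rose to 144 and 138 CPM, against 66.0 to 87.1 CPM in unchallenged mice (0.85 ± 0.15), and the spindle gene Tpx2 to 53.4 and 48.6 CPM, against 30.7 to 36.2 CPM (0.67 ± 0.14). They were the 2 called of 22 proliferation genes, whose median on day 5 was 0.59, where 0.566% of all genes were called higher. Asns, asparagine synthetase, rose by 0.73 ± 0.18. Values of Ccna2, Tpx2 and Asns after the GC correction or with a day 5 library left out are not reported here.

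The 5 genes named on the lower side of day 5 were Rab43, a small GTPase (-3.46 ± 0.56), Dbp, an output factor of the clock (-3.29 ± 0.70), the AP-1 factor Junb (-3.04 ± 0.52), the nucleotide kinase gene Nme2 (-2.87 ± 0.65) and the adaptor subunit gene Ap5b1 (-2.61 ± 0.28). Junb was at 3.13 and 7.23 CPM on day 5, against 20.2 to 73.7 CPM in unchallenged mice, and at 79.7 and 117 CPM on day 3. Nr1d1, the clock repressor Rev-erb alpha, fell to 40.9 and 58.7 CPM, against 103 to 185 CPM in unchallenged mice (-1.64 ± 0.28). After the GC correction, Rab43, Junb and Ap5b1 were still called (adjusted p 0.034, 0.0178 and 0.0151, edgeR), while Dbp, Nme2 and the 5 named genes on the higher side were not (0.0797 to 0.166). The GC-corrected log2 fold changes of those 5, 1.47 to 2.56, were close to the uncorrected ones, and those of Dbp and Nme2 were -2.74 and -2.60.

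Some enterocyte genes fell on day 5 as well. The GC content of Khk, Apoc3 and Creb3l3 was 59.4%, 56.0% and 56.3%, against a median of 49.6% over all genes tested. Whether the falls in this paragraph remained after the GC correction is not reported here. The apolipoprotein gene Apoc3 fell to 188 and 385 CPM, against 635 to 1045 CPM in unchallenged mice (-1.47 ± 0.29), and Khk, the fructose kinase, to 102 and 151 CPM, against 256 to 389 CPM (-1.21 ± 0.25). The brush border peptidase genes Ace and Ggt1 fell by 1.58 ± 0.29 and 1.41 ± 0.29 on the log2 scale, and Creb3l3, a factor of lipid metabolism, by 1.21 ± 0.29. Absorptive enterocyte genes as a list had a median of -0.81 on day 5 and 1 of 22 passed. Of the 604 list genes 6 were called higher (0.993%) and 14 lower (2.32%) on day 5, against 0.566% and 3.01% of all genes.

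**Figure D5:**
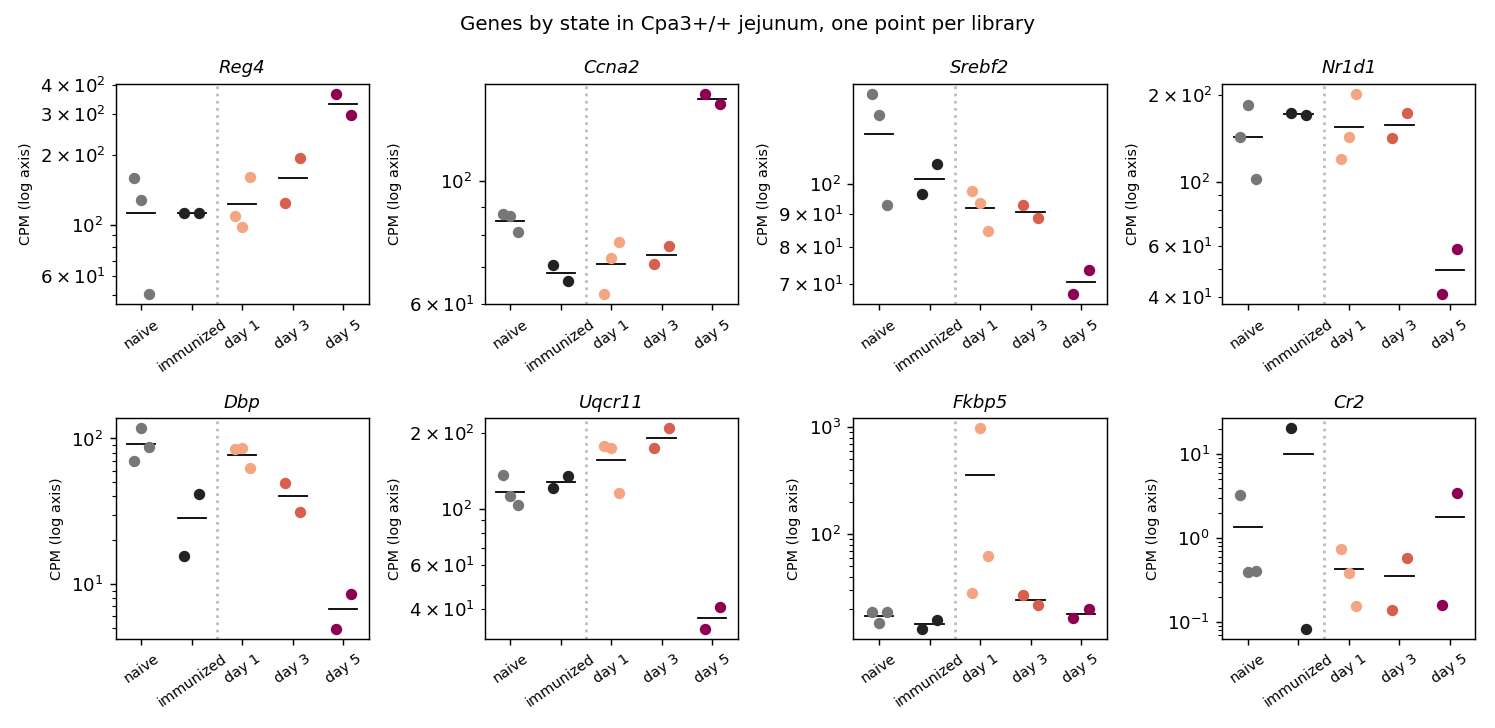
Levels of 8 genes in CPM (log axis) by state, with a point for each library and a bar at each mean; the dotted line parts the unchallenged states (left) from the challenge days. Reg4 and Ccna2 are high and Nr1d1, Dbp and Uqcr11 low on day 5, Fkbp5 is at 974 CPM in 1 day 1 library and Cr2 at 20.3 CPM in 1 immunized library.

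The 3 days were then tested against each other. With edgeR, 999 genes (6.08%) differed among days, 0 without day 5 replicate 1 (2514 at an unadjusted p under 0.05) and 351 without day 5 replicate 2, each of which leaves 1 library on that day. The count was 635 without naive replicate 2, 643 and 633 without immunized replicates 1 and 2, 1867 without day 1 replicate 2, 430 and 290 without day 3 replicates 1 and 2, and 73 with the GC correction. The 999 genes had a median GC content of 56.7%, against 49.6% over all genes tested. The genes with the smallest p were low on day 5 and above unchallenged levels in mean on day 3. Uqcr11 and Ndufb7, subunits of respiratory complexes III and I, had log2 fold changes of 0.36, 0.66 and -1.71, and of 0.41, 0.63 and -1.80, on days 1, 3 and 5. Uqcr11 was at 33.3 and 40.8 CPM on day 5, against 103 to 135 CPM in unchallenged mice. Esrra, a nuclear receptor that controls respiratory genes, had 0.24, 0.47 and -1.58. Dact2, Eno1b, Abcb9, Ppp1r16a, Trib3, Myh14 and Map3k11 followed the same pattern, with day 5 values of -1.89 to -1.25, and Eno1b may share reads with its near-identical relative Eno1. Ptprf, a receptor phosphatase, lay lower in all 7 challenged libraries, at 134 to 300 CPM against 310 to 369 CPM in unchallenged ones, and differed among days with an adjusted p of 0.0484 (edgeR).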

How the data were processed

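Raw read counts per Ensembl gene were used as the authors deposited them. Reads had been aligned to the mouse genome (mm10, GRCm38) with STAR and counted with featureCounts (Subread version 1.5.1), as the submitters' processing notes state. The libraries were made with a TruSeq stranded kit from PureLink RNA, per the labels' protocols. The sources used here do not give the strand setting or the annotation, so overlapping genes, antisense genes and near-identical copies may share reads. Symbols and positions came from GENCODE vM21.

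Genes with low counts were removed with filterByExpr, libraries were scaled with TMM factors, and differences were tested two-sided with edgeR 4.0.16 (robust quasi-likelihood F test, R 4.3.3, 12 libraries, 10 residual degrees of freedom, no covariate). P-values were adjusted over all genes tested with the Benjamini-Hochberg method at 0.05, and SE was derived from the fold change and F. Each day was set against the unchallenged libraries in a model of 4 groups, the days against each other with an F test, and the genotypes in a model of 23 libraries with sex. Scripts were tested on simulated data. DESeq2 1.42.0 was an alternative.

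Named genes were Cpa3, Mcpt1, Mcpt2, Kit and Fcer1a, 12 in each direction with the smallest p (at least 1 CPM in a group), 5 in each direction for days with calls, 10 among days, 5 for genotypes, and up to 4 per list, without predicted genes, receptor segments, Y-linked genes and Xist; other members of lists were named after their values were seen. Members and lists were chosen with earlier results of these data known, so counts over lists are descriptions. Results of some genes that this rule names are not reported here.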

Additional observations from a re-analysis of the deposited data

Results flagged for a closer look

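Among the genes named, groups of libraries were examined for a library far from the rest of its group. By chance the rule marks about 5% of groups if values are independent and normally spread. Here groups join days or states, and genes were chosen from the same data, so the count is a description. Of 176 groups, 25 were marked. Day 1 replicate 2 was the marked library in 8 of them, with 2.67 CPM for Ly6g5b, 974 for Fkbp5, 159 for Zbtb16, 955 for Mt2, 1400 for Mt1, 144 for Angptl4, 8.21 for Rasd1 and 9.84 for Coil. Day 1 replicate 3 stood high for the gasdermin genes Gsdmc2 (128 CPM) and Gsdmc4 (113). Day 3 replicate 1 stood high for the mast cell proteases Cma1 (2.54 CPM) and Tpsb2 (5.01). On day 5, replicate 1 stood high for Mboat1 (10 CPM) and replicate 2 for Pnliprp2 (381) and for the B cell genes Cr2 (3.45), Cxcr5 (1.52) and Pax5 (2.72).

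In the unchallenged group, immunized replicate 1 stood high for the lymphocyte genes Ikzf3 (16.1 CPM), Cr2 (20.3) and Pax5 (14.3). Naive replicate 3, the single male library, stood high for Gsdmc2 (18.5 CPM), Gsdmc4 (15.1) and Ndufb5 (124). Naive replicate 1 stood high for Krt18 (162 CPM) and Tpx2 (36.2).

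Genes whose challenge days differed from each other were marked as well, with adjusted p values from edgeR's F test over all genes. They were 0.00195 for Dact2, Uqcr11 and Eno1b, 0.00197 for Ndufb7 and Esrra, 0.0022 for Abcb9 and Ppp1r16a, and 0.0023 for Trib3, Myh14 and Map3k11. They were 0.00278 for Ap5b1, 0.00659 for Junb, 0.00797 for Ccna2, 0.00847 for Ltc4s and 0.009 for Khk. For Rab43 it was 0.011, for Apoc3 0.0112, for Nr1d1 0.0115, for Nme2 0.012, for Tpx2 0.016 and for Creb3l3 0.0161. For Ace it was 0.0224, for Ggt1 0.0259, for Dbp 0.0407 and for Ptprf 0.0484. The day 5 log2 fold changes of the 10 genes with the smallest p kept their sign with any library left out. These genes were chosen by that p in the same libraries, so the kept sign is no separate support.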

How the results depend on the processing

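The comparison of all challenged with all unchallenged libraries gave 0 calls in edgeR under every setting but 1. That setting, immunized libraries alone as unchallenged, called 1 gene lower. DESeq2 called 3 higher and 1 lower. Leaving out each library gave 0. On day 1, counts higher and lower were 18 and 4 without the low-count filter, 6 and 1 with DESeq2, and 0 to 1 and 0 to 0 with a library left out. On day 3 they were 39 and 31 without the filter, 14 and 17 with DESeq2, and 0 to 2 and 0 to 0 with a library left out. On day 5 they were 285 and 987 with DESeq2, 10 and 36 with the GC correction, and 0 to 511 and 0 to 901 with a library left out. Genes that differed among days numbered 1678 without the filter, 2312 with DESeq2, 73 with the GC correction and 0 to 1867 with a library left out. The difference between genotypes had 0 calls under all its settings. The cause of these moves was not tested, except that fewer libraries or more genes tested follow from the settings themselves. Kit, at -0.05, ranged from -0.187 to 0.117 with a library left out and was positive without naive replicate 1 (0.117), day 1 replicate 1 (0.0092) and day 1 replicate 2 (0.0032), while no other of the genes named by smallest p for the pooled comparison or day 5 changed sign under the settings run. Trib3 on day 3 turned negative with the GC correction. Of 88 tested genes named in the text, 24 changed sign under some setting in the pooled comparison. The number was 20 on day 1, 11 on day 3, 12 on day 5 and 50 for the difference between genotypes.

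Same-numbered libraries of different states did not deviate together (21 pairs, correlations -0.228 to 0.0959). In states with 2 libraries the deviations mirror each other, so some pairs repeat others. No pairing was seen, but so few libraries cannot exclude one. With the replicate block, 45 genes were called higher on day 5 in place of 93, and 0 in the pooled comparison. At 2 or 3 libraries per state, genes below about 1 CPM rest on few reads.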
